A study of Mus musculus with 12 samples.

Results

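A set of 10 genes that encode chromatin regulators recurrently mutated in small cell carcinoma of the lung was followed across 5 normal mouse lungs and 7 mouse lung tumors: Crebbp, Ep300, Kmt2a, Kmt2c, Kmt2d, Kdm6a, Arid1a, Arid1b, Smarca2 and Smarca4. They were chosen by name, and all 10 were found among the 30399 genes of the table. The tumors come from a study of mouse lung cancer models made by CRISPR/Cas9 mutagenesis without viral delivery, and the groups are the tissue labels, normal lung and tumor. The labels do not give the genes targeted, the strain, the age or the treatment of any animal, and it is not stated whether the normal lungs received the nuclease. The 7 tumors carry 4 distinct numbers in their titles, since tumors 3 and 4 share 1 number and tumors 5, 6 and 7 another. Tumors 1 and 7 are titled as trachea, and nothing says which samples came from separate animals. The p-values therefore rest only on the spread between these samples. The main fit treats the 7 tumors as independent, and its p-values would be too small if tumors of 1 animal resemble each other.

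These proteins set how open and how active chromatin is. Crebbp and Ep300 are acetyltransferases that mark active enhancers, among them acetylation of histone H3 lysine 27. Kmt2a, Kmt2c and Kmt2d methylate histone H3 lysine 4 at promoters and enhancers, and Kdm6a, which removes methyl groups from histone H3 lysine 27, works in the same complexes as Kmt2c and Kmt2d. Smarca4 and Smarca2 are the alternative ATPase motors of the BAF (SWI/SNF) remodelers, which slide and evict nucleosomes, and Arid1a and Arid1b are the alternative large subunits of one BAF form. In human small cell carcinoma these genes are known mostly as targets of mutation, which a count of transcripts does not read.

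In the tumors 8 of the 10 transcripts were higher than in normal lung, 1 was lower and 1 was not called. A gene was called when its adjusted p in limma, taken over 23674 tested genes, was under 0.05. Many genes differed between these tissues: 31.4% of all tested genes were called higher and 30.1% lower. The members are long and well read, and among the 3275 genes with a mean normalized read count of at least 500 and at least 6 kb of exon, 41.7% were called higher and 26.8% lower (this group was defined after the data were seen). The median log2 fold change of the members was 0.66, beside 0.04 for all tested genes and 0.22 for the long, well-read genes. All log2 fold changes are tumor minus normal lung on log2(value + 1), where the value is a normalized read count. Kmt2a, Kmt2c, Arid1a and Smarca4 were above every normal lung in every tumor, where 20.1% of all tested genes were so placed. Smarca2 was below every normal lung in every tumor, where 18.4% of all tested genes were. The other 5 members overlapped between the groups.

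**Figure D1:**
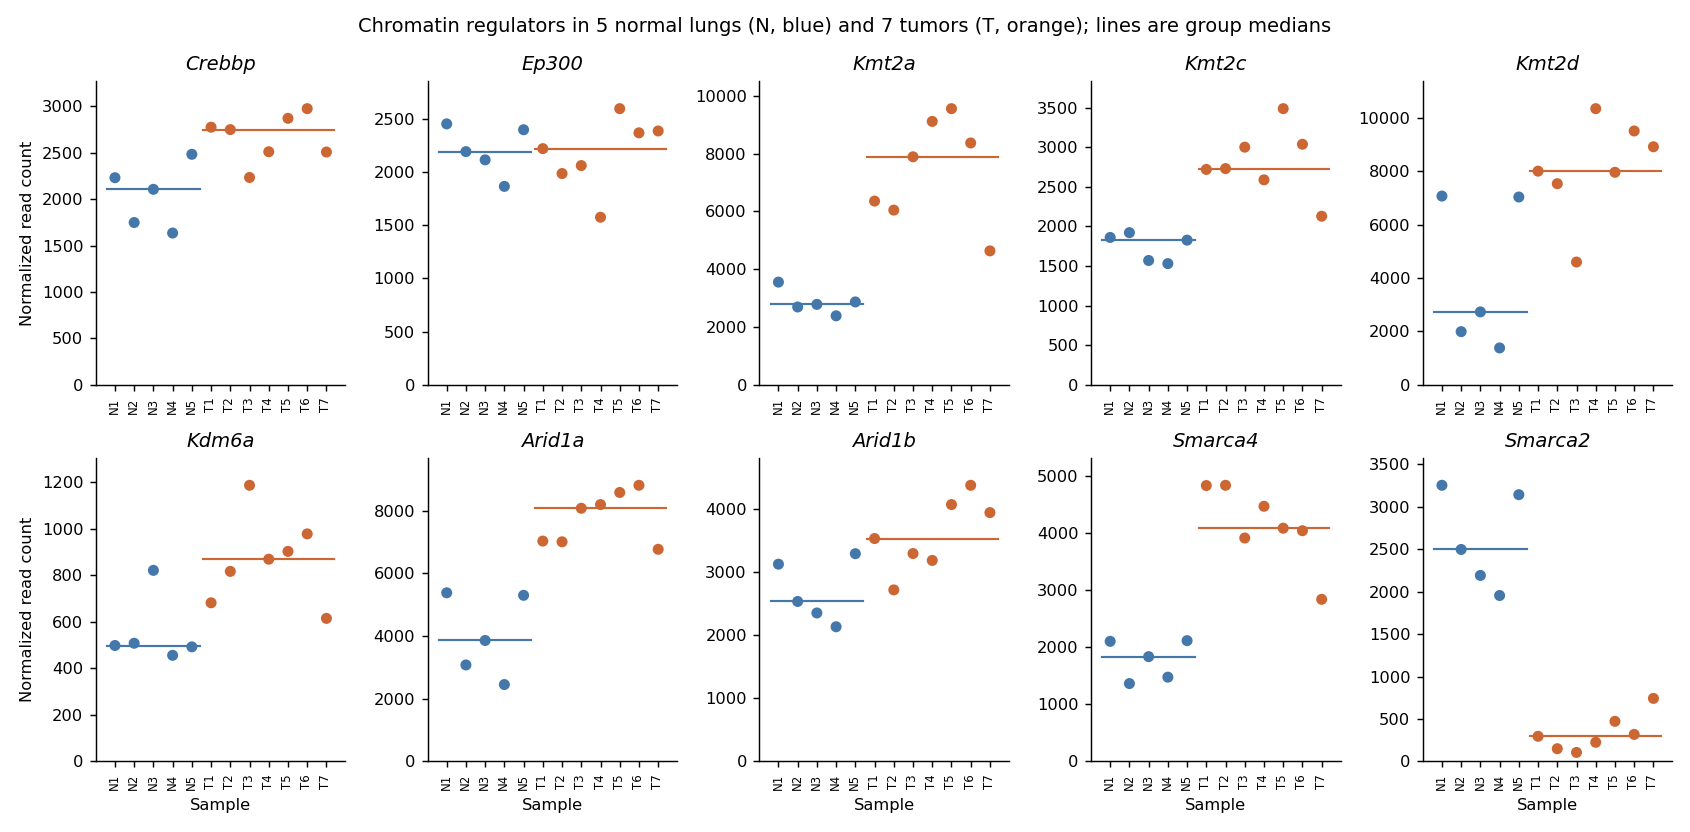
Normalized read count (vertical axis, from 0, scaled per gene) of the 10 chromatin regulators in each of 5 normal lungs (N1 to N5, blue) and 7 tumors (T1 to T7, orange), with group medians as lines. Smarca2 is 1955 or more in every normal lung and 743 or less in every tumor, and Kmt2d reaches 7078 and 7043 in N1 and N5 against 2734 or less in the other normal lungs.

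The promoters of the ATPase genes, Smarca4 and Smarca2, are shown because their transcripts moved in opposite directions, and the Arid1a promoter because it alone among the members held a searched word. The windows are RefSeq promoters of GRCm38.p6, from 250 bases before to 50 bases after the annotated start, written 5′ to 3′ along the gene. In the Smarca4 and Smarca2 windows the capitals mark CpG dinucleotides, 33 in Smarca4 (chr9:21615919-21616218, plus strand) and 29 in Smarca2 (chr19:26604910-26605209, plus strand). In the Arid1a window (chr4:133753936-133754235, minus strand) the capitals mark the word TTTCCCGC, which starts 55 bases before the start site.
Smarca4: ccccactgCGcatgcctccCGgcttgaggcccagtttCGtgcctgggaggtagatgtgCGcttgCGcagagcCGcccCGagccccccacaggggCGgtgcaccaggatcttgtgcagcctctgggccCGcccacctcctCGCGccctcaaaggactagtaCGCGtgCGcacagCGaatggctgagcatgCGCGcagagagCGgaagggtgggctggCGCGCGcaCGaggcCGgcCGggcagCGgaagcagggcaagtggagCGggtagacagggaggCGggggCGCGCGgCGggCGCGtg
Smarca2: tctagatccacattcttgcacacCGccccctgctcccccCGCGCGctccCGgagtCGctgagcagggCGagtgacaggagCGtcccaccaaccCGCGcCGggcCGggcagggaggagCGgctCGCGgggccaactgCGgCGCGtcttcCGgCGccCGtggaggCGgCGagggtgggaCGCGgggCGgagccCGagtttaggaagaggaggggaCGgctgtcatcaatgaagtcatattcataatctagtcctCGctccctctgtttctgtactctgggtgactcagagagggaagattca
Arid1a: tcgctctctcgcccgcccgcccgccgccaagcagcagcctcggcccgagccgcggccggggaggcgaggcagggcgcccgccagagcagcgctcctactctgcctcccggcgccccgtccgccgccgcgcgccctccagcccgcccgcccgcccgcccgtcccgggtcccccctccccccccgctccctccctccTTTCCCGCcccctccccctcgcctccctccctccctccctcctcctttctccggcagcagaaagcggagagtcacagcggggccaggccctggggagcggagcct

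All 10 members matched the promoter table, in 11 windows. Each member window was rich in G and C: GC content ran from 61.3% in the other Arid1a window to 88.0% in Kmt2c, against a median of 52.7% over 32851 windows. CpG counts ran from 21 in Kdm6a to 56 in Kmt2c, against a median of 7. Smarca2 and Smarca4 both lay in this range, at 65.7% and 72.3% GC. The E2F-type words TTTCCCGC, TTTGGCGC, TTTCGCGC and TTTGCCGC, searched on both strands, were found in 1 of the 11 member windows and in 2.26% of all windows. These are letters in a window: no binding or chromatin state was measured here.

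The change of largest size was in the BAF ATPases. Smarca2 measured 3254, 2498, 2192, 1955 and 3143 in normal lungs 1 to 5, and its lowest, median and highest tumor values were 106, 296 and 743. Every tumor lay under the lowest normal lung, and the log2 fold change was -3.21 ± 0.40 (SE, adjusted p = 1.3e-05), a 9.26-fold lower level. The ratio of highest to lowest tumor was the widest of any member in either group. Tumors 3 and 4, which share a title number, held 106 and 225, and tumors 5, 6 and 7, which share another, held 472, 319 and 743.

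Smarca4 went the other way. It measured 2101, 1362, 1833, 1474 and 2113 in normal lungs 1 to 5, and 2836, 4080 and 4831 at the lowest, median and highest tumor. All tumors were above all normal lungs, with a log2 fold change 1.22 ± 0.16 (SE, adjusted p = 2.7e-05), or 2.34-fold. The lowest tumor was tumor 7, the same sample that held the highest Smarca2.

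Per kb of exon, Smarca4 was 1.48 times Smarca2 in the median normal lung and 35.9 times in the median tumor. The length taken was that of all annotated exons of a gene, 14269 bases in Smarca2 and 6475 in Smarca4. The order in normal lung rests on these lengths, since by read count Smarca2 was the higher in every normal lung. The log2 ratio of Smarca4 to Smarca2 within a sample does not depend on how that sample was scaled. It was -0.55 ± 0.23 (SD, n = 5) in normal lungs and 3.89 ± 1.13 (SD, n = 7) in tumors, a difference of 4.44 (exact two-sided permutation test over 792 arrangements, p = 0.00126, adjusted over 4 paralog ratios 0.00505). The groups were apart: normal lungs ran from -0.87 to -0.26 and tumors from 1.93 in tumor 7 to 5.19 in tumor 3.

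Tumor 7 was the highest tumor in the summed markers of 4 of the other cell types: leukocytes, smooth muscle, cardiac muscle and fibroblasts. The summed normalized count of 6 leukocyte markers was 5271 in tumor 7 against 188 to 1389 in the other tumors and 3947 to 7945 in normal lungs. For 4 smooth muscle markers it was 6923 against 554 to 1343 and 3441 to 5749, and for 3 cardiac markers 24646 against 109 to 1503 and 73.4 to 3078. For 6 fibroblast markers it was 29490 against 3029 to 20682 in the other tumors and 9028 to 21804 in normal lungs. Col1a1, Col1a2, Col3a1, Dcn and Lum were highest in tumor 7 among the tumors. Pdgfra was not: it was 781 in tumor 7 and 2949, 1779, 1193 and 1040 in tumors 3, 4, 5 and 6. Tumor 7 was not the highest tumor in lung epithelial (995) or red blood cell markers (933). In the endothelial sum tumor 1 (7380) was above tumor 7 (5951), with Vwf at 6522 in tumor 1 and 1395 in tumor 7. In Pecam1, Cdh5, Kdr, Tek and Cldn5 tumor 7 was the highest tumor. No listed leukocyte, smooth muscle or cardiac marker was at 0 in tumor 7, while Cd3e was at 0 in tumors 1, 2 and 3. Without tumor 7, the log2 fold change of Smarca2 was -3.45 and that of Smarca4 1.31. Endothelial markers (6 of 6 called lower) summed to 61763 to 71455 in normal lungs and 2409 to 7380 in tumors, and lung epithelial markers (8 of 8 lower) to 284415 to 509724 and 481 to 3216, with Sftpa1 at 0 in tumor 7 and Cldn18 at 0 in tumors 1 and 3. In bulk tissue fewer cells of a type and less RNA per cell cannot be told apart, and the part of these cell types in the Smarca2 and Smarca4 differences was not tested.

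**Figure D2:**
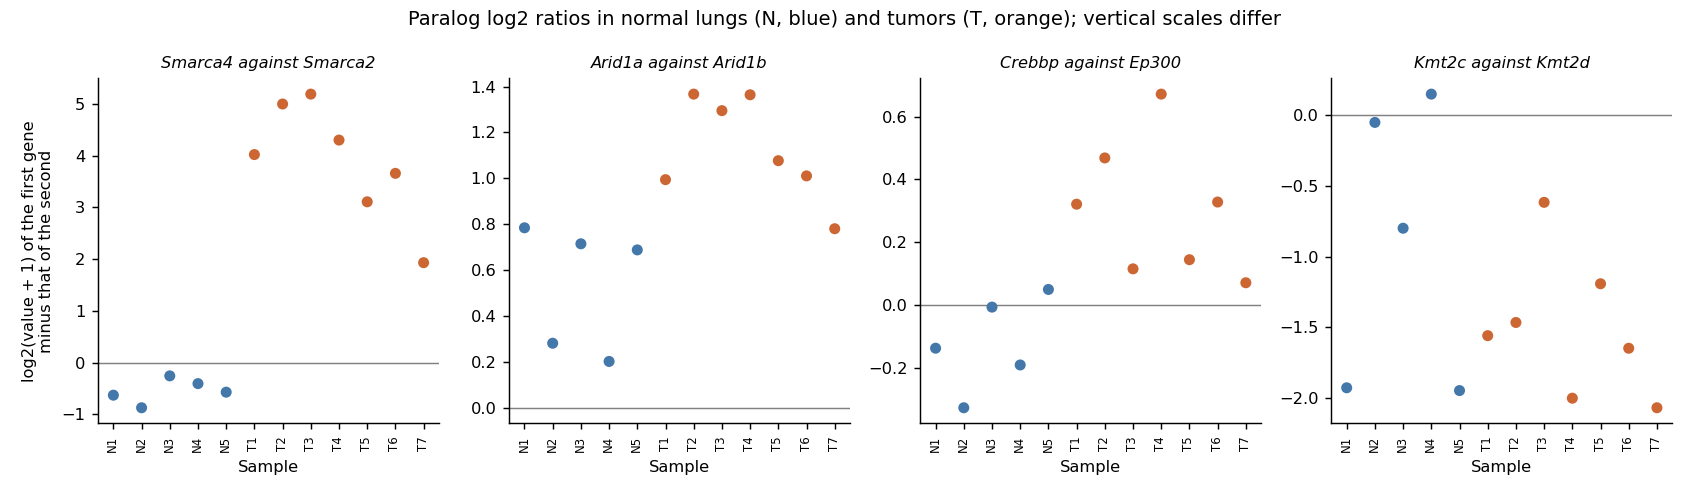
Difference of log2(value + 1) between paralogs (vertical axis, log2 units, separate scale in each panel) in each normal lung (blue) and tumor (orange). Smarca4 against Smarca2 is below 0 in all 5 normal lungs and at 1.93 or more in all 7 tumors, whereas Kmt2c against Kmt2d overlaps between the groups.

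The ARID subunits rose unequally. Arid1a, a DNA-binding subunit and the most frequently mutated BAF gene of human cancer, measured 5378, 3077, 3857, 2452 and 5297 in normal lungs 1 to 5 and 6765, 8074 and 8806 at the lowest, median and highest tumor. The groups did not overlap, and the log2 fold change was 1.01 ± 0.19 (SE, adjusted p = 4.3e-04). Tumors were close to each other, within 1.30 times, while normal lungs spread over 2.19 times. Per kb of exon Arid1a was the highest member in both groups, at 336 in the median normal lung and 704 in the median tumor.

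Arid1b measured 3122, 2532, 2350, 2132 and 3288 in normal lungs 1 to 5, and 2715, 3527 and 4371 at the lowest, median and highest tumor. The groups overlapped, since tumors 2 and 4 lay under normal lung 5 and tumor 2 also under normal lung 1. Its log2 fold change 0.42 ± 0.15 (SE, adjusted p = 0.0295) was the least secure call of the list: 12 of 26 alternative analyses put its adjusted p above the threshold. Those 12 included leaving out normal lung 2, 3 or 4 or tumor 5 or 6, with log2 fold changes from 0.34 to 0.40. They also included averaging tumors that share a title number (0.34, adjusted p = 0.115) and treating them as a correlated block (0.39, adjusted p = 0.0511). In both of these 7 members were called higher instead of 8. The log2 ratio of Arid1a to Arid1b was 0.53 ± 0.27 (SD, n = 5) in normal lungs and 1.13 ± 0.22 (SD, n = 7) in tumors (exact two-sided permutation test, p = 0.00253, adjusted over 4 ratios 0.00505), although tumor 7 at 0.780 fell just inside the normal range of 0.202 to 0.784.

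All 3 H3K4 methyltransferases among the members were called higher. Kmt2a, the founding member of the family and the gene rearranged in some leukemias, measured 3553, 2692, 2783, 2387 and 2867 in normal lungs 1 to 5. Its lowest, median and highest tumor values were 4634, 7890 and 9555. All tumors exceeded all normal lungs, with a log2 fold change 1.35 ± 0.18 (SE, adjusted p = 2.9e-05), or 2.55-fold, and tumor 7 was again the lowest. Another gene model on the opposite strand shares 2.27% of its exon bases, and use of the strand in counting is not given in the sources used here.

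Kmt2c, an enhancer methyltransferase, measured 1861, 1921, 1570, 1531 and 1827 in normal lungs 1 to 5 and 2129, 2730 and 3487 at the lowest, median and highest tumor. The groups were apart, though tumor 7 lay close above normal lung 2, and the log2 fold change was 0.68 ± 0.13 (SE, adjusted p = 6.3e-04). It was 0.37 after each sample was centred on exon length and GC content (adjusted p = 0.021).

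Kmt2d, the paralog of Kmt2c, had the widest spread in normal lung. It measured 7078, 1993, 2734, 1382 and 7043 in normal lungs 1 to 5, so that normal lungs 1 and 5 lay among the tumors, whose lowest, median and highest values were 4604, 8013 and 10357. Its standard deviation in normal lung, 1.07 on log2(value + 1), was larger than that of 99.0% of the 8011 genes with a mean of at least 500 over all samples. The log2 fold change was 1.27 ± 0.38 (SE, adjusted p = 0.0105). It ran from 0.96 without normal lung 4 to 1.55 without normal lung 1, and was 0.76 after centring on length and GC content (adjusted p = 0.0457). The log2 ratio of Kmt2c to Kmt2d, which ran from -1.95 to 0.15 (mean -0.92) in normal lungs and from -2.07 to -0.62 (mean -1.51) in tumors, did not differ beyond the spread (exact two-sided permutation test, p = 0.197).

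Normal lungs 1 and 5 differed from the others across long genes in general. Across 13552 genes, Spearman's rho between a gene's deviation from the normal mean and its exon length was 0.40 in normal lung 1 and 0.37 in normal lung 5. It was -0.11, -0.13 and -0.47 in normal lungs 2, 3 and 4. The general shift was small in log2 units. Among these, the 4411 genes with at least 6 kb of exon had median deviations of 0.10, -0.02, -0.04, -0.17 and 0.12 in normal lungs 1 to 5. Kmt2d deviated by 1.11, -0.72, -0.26, -1.24 and 1.11, and the part of exon length in its spread was not tested. Members followed the same order: normal lung 4 had the lowest value of 9 of the 10 members, and normal lung 1 or 5 had the highest of 8. Normal lungs 1 and 5 were high in Arid1a and, outside the list, in Kmt2b, the paralog of Kmt2a (2329 and 2412, against 815 to 1232 in the other normal lungs). After centring on length and GC content, 5 members were called higher and 1 lower. Crebbp (0.27), Kdm6a (0.47) and Arid1b (0.28) then had adjusted p of 0.0601, 0.0516 and 0.0518.

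**Figure D3:**
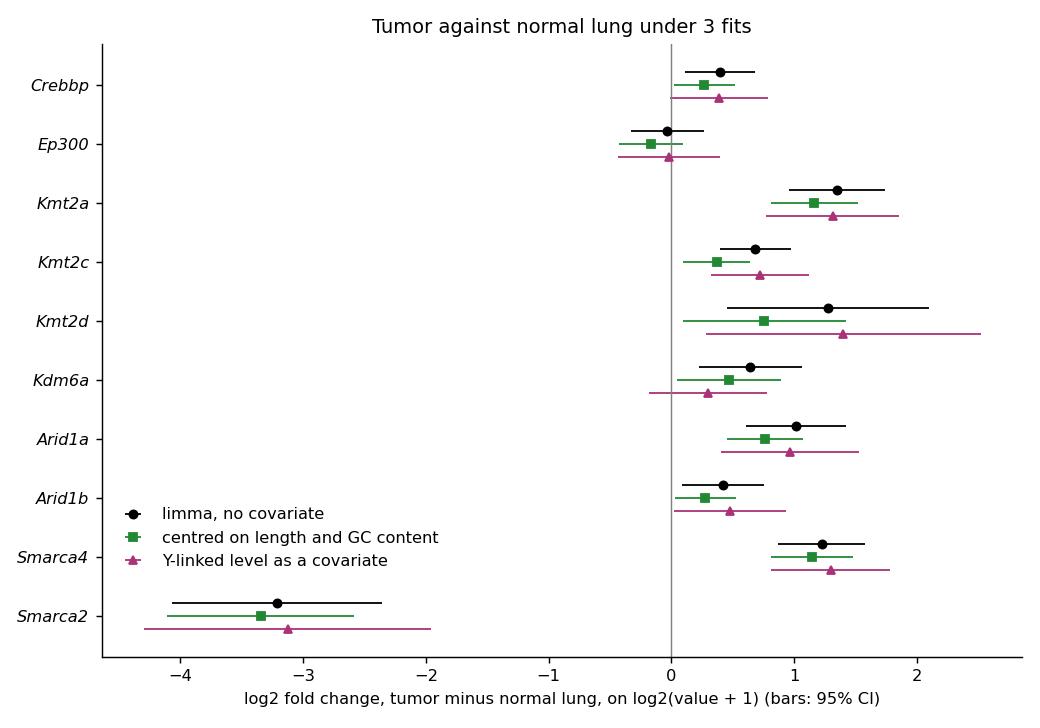
Log2 fold change of each chromatin regulator, tumor minus normal lung on log2(value + 1) (horizontal axis), with 95% confidence intervals from limma, for 3 fits of the same samples. Smarca2 lies near -3 in every fit and Ep300 crosses 0 in every fit, while the values of Kmt2c and Kmt2d are smaller after centring on length and GC content.

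The acetyltransferase paralogs differed in their response. Crebbp measured 2231, 1748, 2106, 1635 and 2483 in normal lungs 1 to 5 and 2234, 2749 and 2975 at the lowest, median and highest tumor. Only tumor 3 lay under the highest normal lung. The log2 fold change was 0.39 ± 0.13 (SE, adjusted p = 0.0196), and without normal lung 2 or normal lung 4 it was 0.34 (adjusted p = 0.0594) or 0.32 (adjusted p = 0.0578).

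Ep300 measured 2454, 2193, 2116, 1866 and 2399 in normal lungs 1 to 5 and 1576, 2221 and 2597 at the lowest, median and highest tumor. The groups overlapped throughout. Its log2 fold change was -0.03 ± 0.14 (SE, adjusted p = 0.855), with a 95% confidence interval from -0.33 to 0.27, and it is the member that was not called. The log2 ratio of Crebbp to Ep300 was -0.12 ± 0.15 (SD, n = 5) in normal lungs and 0.30 ± 0.22 (SD, n = 7) in tumors, with every tumor above every normal lung (exact two-sided permutation test, p = 0.00379, adjusted over 4 ratios 0.00505). The lowest tumor, 0.071 in tumor 7, lay close to the highest normal lung, 0.050 in normal lung 5.

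Kdm6a, the H3K27 demethylase, lies on the X chromosome, is known to escape X inactivation in females and has a Y-linked homolog, Uty. It measured 498, 507, 820, 456 and 492 in normal lungs 1 to 5 and 614, 868 and 1186 at the lowest, median and highest tumor, with a log2 fold change 0.64 ± 0.19 (SE, adjusted p = 0.0111). Normal lung 3 stood apart from the other normal lungs and lay above tumors 1, 2 and 7. The 4 Y-linked genes Ddx3y, Eif2s3y, Kdm5d and Uty were expressed in normal lungs 1, 2, 4 and 5 and in tumor 1 and at or near 0 in normal lung 3 and the other 6 tumors. Uty itself had 191 to 367 reads in normal lungs 1, 2, 4 and 5, 449 in tumor 1, and at most 1 in the other 7 samples.

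Set beside that division, Kdm6a was 456 to 507 in the 4 normal lungs with Y-linked expression and 681 in the tumor with it. It was 820 in the normal lung without it and 614 to 1186 (mean 894) in the 6 tumors without it. In a fit that included the Y-linked level, the log2 fold change of Kdm6a was 0.30 (SE 0.22, adjusted p = 0.282). Among the 7 samples without Y-linked expression it was 0.10 (SE 0.35, adjusted p = 0.863), a fit in which the single normal lung is assumed to vary like the tumors. Tissue and Y-linked expression coincide in 10 of the 12 samples and can be told apart only through normal lung 3 and tumor 1.

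**Figure D4:**
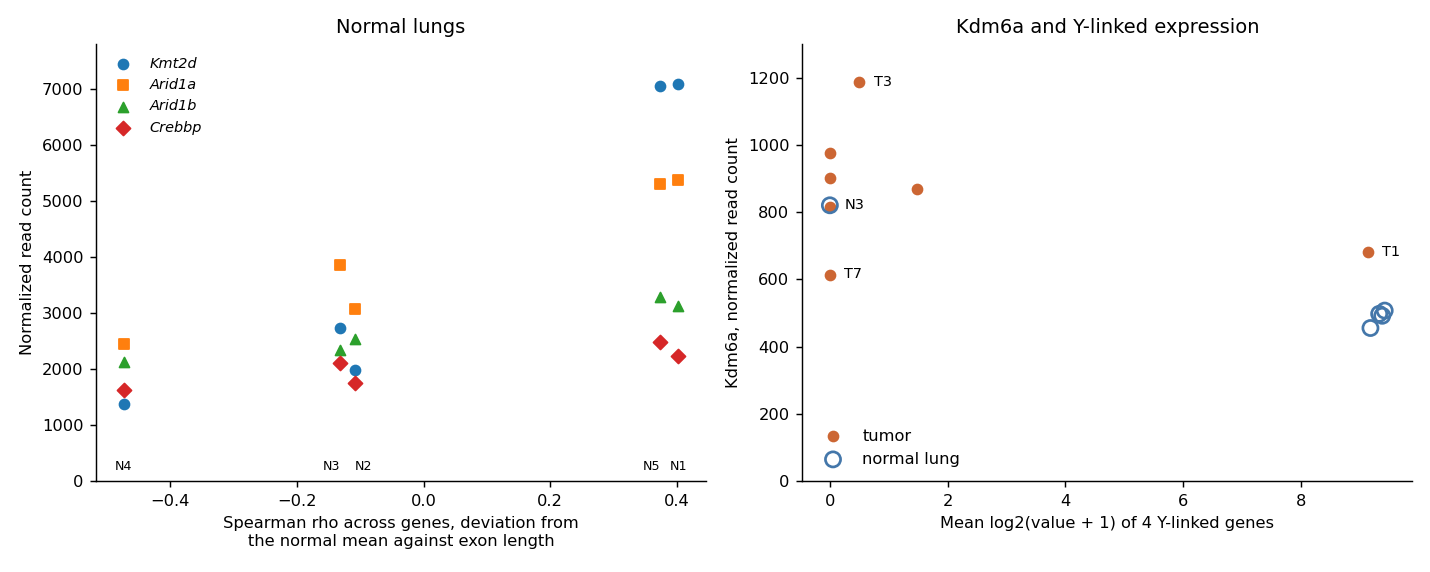
Left, normalized read count of 4 members in each normal lung against Spearman's rho, across genes, of that lung's deviation with exon length. Right, normalized read count of Kdm6a against the mean log2(value + 1) of 4 Y-linked genes, where normal lung 3 (N3, 820) sits among the tumors and tumor 1 (T1, 681) sits above the normal lungs with Y-linked expression.

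By level per kb of exon, the order of medians in normal lung was Arid1a, Smarca4, Arid1b, Smarca2, Kmt2a, Crebbp, Ep300, Kmt2d, Kmt2c and Kdm6a, from 336 to 59.4. Each pair of neighbours in this order overlapped in its range over the samples. In tumors the order was Arid1a, Smarca4, Kmt2a, Kmt2d, Arid1b, Crebbp, Ep300, Kmt2c, Kdm6a and Smarca2, from 704 to 20.8, and here too neighbours overlapped, except that every Smarca2 value (7.43 to 52.1) lay under every Kdm6a value (73.3 to 141). Smarca2 thus moved from rank 4 to rank 10, and Kmt2d from 8 to 4. These ranks depend on the exon length given to each gene. Within the tumors Crebbp and Arid1a had standard deviations of 0.14 and 0.16 on log2(value + 1). These were larger than those of 1.77% and 2.80% of the 8011 genes with a mean of at least 500. That mean is over all samples, so the 8011 include genes high in normal lung and low in tumors, such as Sftpc. Tumor 7 was the lowest tumor for 5 members, Kmt2a, Kmt2c, Kdm6a, Arid1a and Smarca4.

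Partners of the BAF ATPases were called higher in 15 of 24 cases and lower in 1, Brd7 (-0.32, adjusted p = 0.0448). Their median log2 fold change was 0.89. Beside this and the list counts that follow, 31.4% of all tested genes were called higher and 30.1% lower. Of the long, well-read genes 41.7% were called higher and 26.8% lower. No partner was called lower without normal lung 1, 3 or 5 or tumor 3, 5 or 6, or when tumors of one title number were averaged or correlated. The same held with no filter on low values, with columns scaled to equal totals and with the Y-linked level in the fit. Actl6b, the actin-like subunit known from the BAF complex of neurons, had 0, 0, 0, 1 and 3 reads in normal lungs 1 to 5 and 464 to 1477 reads in tumors. In normalized counts the tumors held 462 to 991, and no fold is given against so few reads. Dpf1 and Dpf3, the other neuron-type subunits, rose with log2 fold changes of 2.88 (SE 0.42) and 2.50 (SE 0.22). Dpf1 was 16.2 to 33.5 in normal lungs and 48.1 in tumor 1 against 148 to 296 in the other tumors. Ss18l1, likewise of the neuron-type complex, rose by 1.11 on the log2 scale (SE 0.16).

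Of the progenitor-type counterparts, Actl6a, the counterpart of Actl6b, rose, with a log2 fold change of 0.96 (SE 0.20), from 268 to 378 in normal lungs to 427 to 978 in tumors, and 11.6% of its exon bases overlap Mrpl47 on the opposite strand. Dpf2, Phf10 and Ss18 were not called, with log2 fold changes of 0.16, -0.50 and -0.16. The difference between neuron-type and progenitor-type subunits was not tested. Smarcc1, a core scaffold subunit, rose by 2.15 on the log2 scale (SE 0.16), from 621 to 811 in normal lungs to 2108 to 3729 in tumors.

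Of the 15 partners of the KMT2 complexes in the table, 9 were called higher and 1 lower, Uty, whose Y-linked pattern is given above. The count of lower partners was 0 by edgeR, by DESeq2 and when tumors of one title number were averaged. It was also 0 with the Y-linked level in the fit. Uty is among the genes averaged into that level, so that fit cannot test Uty. The median log2 fold change was 0.79. Paxip1, a subunit specific to the Kmt2c and Kmt2d complexes, rose from 578 to 856 in normal lungs to 1461 to 2894 in tumors (log2 fold change 1.73, SE 0.18). Ash2l, a core subunit, rose from 480 to 553 in normal lungs to 769 to 1406 in tumors, and Hcfc1 rose by 1.29 on the log2 scale (SE 0.19). Setd1a rose by 1.59 on the log2 scale (SE 0.24), but 51.8% of its exon bases lie in another gene model on the same strand, so its count is uncertain. Of the paralogs of the members, Kmt2b was higher (1.06, SE 0.28, adjusted p = 0.0044) and Kdm6b was not called (0.67, SE 0.29, adjusted p = 0.0593).

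The acetyltransferases and coactivators of CBP and p300 were called higher in 7 of 15 cases and lower in 1. Their median log2 fold change was 0.26, close to the 0.22 of the long, well-read genes. The lower one was Cited2 (-0.85, adjusted p = 0.0401), which neither edgeR nor DESeq2 called. This call was lost without normal lung 1, 2 or 3 or tumor 1, 4 or 6. It was also lost with columns scaled to equal totals and with the Y-linked level in the fit. Cited1, a coactivator that binds CBP and p300, had at most 2 reads in any normal lung and 457 to 5820 reads in tumors, and its normalized count was 3685 in tumor 1 against 293 to 1089 in the others. Kat2a, the acetyltransferase of the SAGA complex, rose by 1.02 on the log2 scale (SE 0.25), with 1663 in tumor 2 against 503 to 763 in the other tumors. Ncoa1 and Brpf1 rose by 0.82 and 0.80.

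Histone deacetylases, which oppose the acetyltransferases, were called higher in 8 of 11 cases and lower in 1, with a median log2 fold change of 0.74. Hdac6, which is mostly cytoplasmic, rose by 1.95 on the log2 scale (SE 0.16), and Hdac2, Hdac1 and Hdac10 by 1.22, 1.14 and 0.74. Hdac7, known from endothelium and lymphocytes, was the lower one (-1.35, SE 0.26): it measured 3191 to 7246 in normal lungs, highest in normal lungs 1 and 5, and 998 to 2298 in tumors. Its endothelial part was not tested. Of 7 genes listed here as H3K4 demethylases, an activity not measured here, Kdm2b rose by 1.61 (SE 0.16) on the log2 scale and Kdm1a was also higher. Kdm5b fell by 1.03 (SE 0.19), and the Y-linked Kdm5d was the other one called lower. The count of lower demethylases was 1 by edgeR, by DESeq2 and when tumors of one title number were averaged. It was also 1 with the Y-linked level in the fit. Kdm5d is among the genes averaged into that level, so that fit cannot test Kdm5d.

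Other ATP-dependent remodelers were called higher in 14 of 17 cases, with a median log2 fold change of 0.93. By limma none was lower, none was lower at an unadjusted p under 0.05, and edgeR and DESeq2 also called none lower. After centring on length and GC content 12 were higher and 1, Chd3, was lower. Hells, a remodeler of proliferating cells, rose from 24.0 to 87.2 in normal lungs to 767 to 2300 in tumors (4.94, SE 0.35). Chd5, known from neurons, rose by 4.68 (SE 0.42), Smarca1, the Snf2l ATPase, by 4.01 (SE 0.31), and Chd7, an enhancer remodeler, by 2.17 (SE 0.15). Beside these groups, 8 of 8 neuroendocrine markers were higher (summed normalized count 184 to 210 in normal lungs, 26742 to 114361 in tumors), as were 6 of 6 proliferation markers (587 to 1681 and 16346 to 40084). Their part in the members' differences was not tested.

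**Figure D5:**
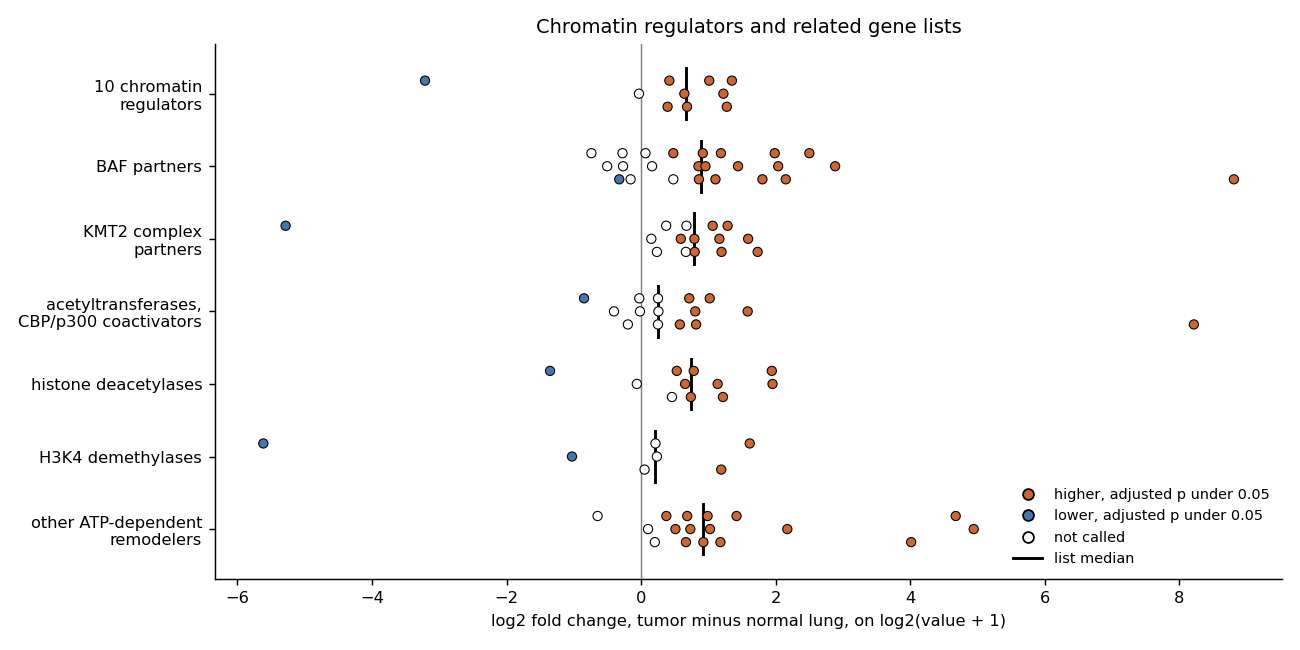
Log2 fold change, tumor minus normal lung on log2(value + 1) (horizontal axis), of each gene in the member list and the 6 related lists, filled by call at an adjusted p under 0.05, with list medians as vertical lines. All list medians lie above 0, from 0.21 for H3K4 demethylases to 0.93 for the other remodelers. The median of the long, well-read genes, which is not drawn, was 0.22. Smarca2 is the member farthest to the left, with Ep300 just left of 0 and not called.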

How the data were processed

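Poly-A RNA sequencing of 5 normal lungs and 7 tumors was used. The authors deposited 1 table of a signal, normalized read counts per gene. The submitters' processing notes name featureCounts, DESeq2 and GRCm39. Their roles and versions, the aligner, the annotation and the use of strand are not given in the sources used here. In each column 100% of values were whole multiples of 1 read (tolerance 0.01 read), and the steps matched DESeq2-type size factors within a relative difference of 3.93e-10. Recovered depth was 11126432 to 17032234 reads in normal lungs and 13093843 to 24217633 in tumors. A count of 3 reads corresponds to a normalized count of at most 4.85 in the normal lungs and 3.57 in tumors. Replicates all differed by more than sampling noise (chi-square over degrees of freedom at least 18.4). Symbols came from GENCODE M21, which named 29982 of 30399 identifiers. Its exon lengths, over all annotated exons of a gene, give values per kb. They may differ from those of the build used for counting and from the transcripts expressed.

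A filter on mean value (1 or more) left 23674 genes, whose log2(value + 1) was compared with limma 3.58.1 (lmFit, eBayes with trend, R 4.3.3) and Benjamini-Hochberg adjustment, over all 12 samples with no covariate. This scale understates changes of low genes. Paralog ratios were tested by exact permutation over all arrangements of the samples (Python 3.11.15, numpy 2.4.6). Alternatives were edgeR 4.0.16 and DESeq2 1.42.0 on recovered reads, other pseudocounts, filters and scalings, averaging or correlating tumors of one title number, leaving out samples, a Y-linked covariate, and 3 alternatives chosen after seeing the data: centring on length and GC content, only samples without Y-linked expression, and leaving out tumors 6 and 7. The fits were tested on simulated data. Each list contributes up to 4 genes in each direction with the largest log2 fold change among those called with groups that do not overlap, plus Actl6a, Actl6b, Dpf1, Dpf2, Dpf3, Phf10, Ss18, Ss18l1, Kmt2b, Kdm6b and Uty. Brd7, Cited2, Kdm1a, Kdm5d and Chd3 were named after their values were seen. The members and lists were chosen with earlier results of these data known. Pagr1a was not analysed here. Replicate numbers follow the accession order and do not pair samples.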

Additional observations from a re-analysis of the deposited data

Results flagged for a closer look

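Values below are log2(value + 1). In each group the gap of the highest or lowest sample to its neighbour was compared with the range of the group (Dixon's test at the 95% level). Of 90 sets of values compared, 14 stood out, where chance at 1 in 20 would give 4.5. The sets share the same samples and are not independent, so whether 14 exceeds chance was not tested. Among the members, Kmt2d was low in tumor 3 (12.17, others 12.88 to 13.34), Kdm6a was high in normal lung 3 (9.682, others 8.83 to 8.99) and Smarca4 was low in tumor 7 (11.47, others 11.93 to 12.24). Tumor 7 was also low for Smarcc1 (11.04), Ss18l1 (8.7), Paxip1 (10.51) and Ash2l (9.589). Tumor 2 was low for Dpf2 (9.469) and Ss18 (9.414) and high for Kat2a (10.7). Normal lung 2 was low for Dpf2 (9.822), and tumor 1 was low for Dpf1 (5.618). Uty was 0 in normal lung 3 and 8.156 in tumor 1, the samples whose Y-linked expression differed from the rest of their group.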

How the results depend on the processing

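Over 26 alternatives the count of members higher in tumor was 7 or 8, or 6 to 8 when 1 sample was left out, except that it was 5 with the Y-linked covariate, 5 after centring on length and GC content and 3 among samples without Y-linked expression. In that last comparison, of 1 normal lung with 6 tumors, the count of members called lower was 0 and 4142 genes were called in all, against 14554 with all samples. Kmt2d, Arid1a and Smarca4 passed the threshold in every alternative with more than 1 normal lung. In the fit with 1 normal lung their log2 fold changes were 1.53, 1.03 and 1.12. That fit takes the spread of normal lung from the tumors. Smarca2 kept its direction in all 26 and missed the threshold only among samples without Y-linked expression (-3.01, adjusted p = 0.0697), as did Kmt2a (1.41, adjusted p = 0.0577) and Kmt2c (0.83, adjusted p = 0.0926). The Y-linked covariate left Crebbp (0.39, adjusted p = 0.0978), Kdm6a and Arid1b (0.48, adjusted p = 0.0775) uncalled. Ep300 changed sign under columns scaled to equal totals (0.1734), quantile normalization (0.0128), leaving out 1 sample (-0.0901 to 0.0428, above 0 without normal lung 1, normal lung 5 or tumor 4) and among samples without Y-linked expression (0.0136), and was never called; the cause was not tested. Equal totals moved the median of all genes by 0.19. The 4 paralog ratios kept their side of the threshold in all 16 of their alternatives. No paired analysis was possible because the labels give no numbers that both groups share. Depth limits mainly Actl6b and Cited1 in normal lung, which rest on at most 3 reads.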
